A study of Mus musculus with 6 samples.

Results

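Heat shock proteins and chaperonins are the proteins that fold, hold or refold other proteins. The members described here are the 80 protein-coding genes, of 21811 protein-coding genes and 49315 genes counted in all, whose mouse symbols begin with Dnaja, Dnajb, Dnajc, Hsp or Cct followed by a family letter or number, with Hspbp1 added. Hspg2, a proteoglycan of the extracellular matrix, and Hspa5 and Hsp90b1, the chaperones of the endoplasmic reticulum, were left out. The rule uses gene names and no measured value, though it was set with earlier results of these data known. There were 10 HSP70 genes, 3 HSP110 genes, 2 genes for proteins that bind heat shock proteins (Hspbp1 for HSP70, Hspbap1 for HSP27), 2 HSP90 genes, the HSP60 and HSP10 pair, 8 genes named as subunits of the chaperonin CCT, 4 DNAJA, 13 DNAJB and 28 DNAJC genes, and 8 genes of small heat shock proteins. Tcp1 and Cct6a, which encode subunits of the CCT ring as well, are not members, Tcp1 because of its symbol and Cct6a because the annotation does not class it as protein coding, and their values are given beside the ring.

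RNA was sequenced in bulk from LT-HSCs, ST-HSCs and MPPs, the long-term and short-term repopulating hematopoietic stem cells and the multipotent progenitors that follow them, each from WT and from ING4-/- mice. ING4-/- mice lack Ing4, which encodes a chromatin-binding subunit of an acetyltransferase complex, and the WT controls were C57BL/6 mice of 8 to 12 weeks. The age of the ING4-/- mice that were sequenced is not given in the sources used here. Marrow of 8 to 10 mice was pooled and depleted of lineage-positive cells, and 1000 to 10000 cells were sorted per population from the Lin- Sca1+ cKit+ CD48- gate, LT-HSCs as CD34- CD150+, ST-HSCs as CD34+ CD150+ and MPPs as CD34+ CD150- cells. Each population of each genotype gave 1 library, so the 3 populations stood in for replicates of a genotype (n = 3) and p-values measure the spread between populations. Where 3 values are listed for a genotype, they are in the order LT-HSC, ST-HSC and MPP.

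Chaperones work in relays. J proteins (the DNAJ families) bring unfolded clients to HSP70 and trigger its ATP hydrolysis, HSP110 proteins and other exchange factors release the bound nucleotide, and clients that are not yet folded pass to HSP90 or to the closed ring chaperonins. CCT is the chaperonin of the cytosol, known above all for folding actin and tubulin, and HSP60 with its lid HSP10 is that of the mitochondrion. Heat shock factor 1 induces many of these genes by binding arrays of the pentamer nGAAn in their promoters. Hematopoietic stem cells are known for a low rate of protein synthesis and for poor tolerance of misfolded protein.

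The promoters of a few members are shown here because one pair shares its heat shock element and another pair is nearly identical. Promoter windows, the 250 bases before each start, were taken from RefSeq on GRCm38.p6 for 65 of the 80 members, and a gene with several starts was counted if any of its windows held the motif. The core of a heat shock element, GAANNTTC or TTCNNGAA on either strand, was found in 17 of the 65 members (26.15%) against 14.55% of 27025 genes with a window. The longer form with 3 units in a row, GAANNTTCNNGAA or TTCNNGAANNTTC, which contains the core, was found in 3 of the 65 (4.62%), Hspd1, Hspe1 and Dnajb6, against 0.51% of all genes. Hspd1 and Hspe1 lie head to head on chromosome 1, and the 30 bases shown here, on the plus strand at 1:55088053-55088082, lie before the Hspe1 start and before 1 of the 2 RefSeq starts of Hspd1. The site is downstream of the other Hspd1 start, whose window held no core. The capitals mark overlapping cores, which begin 89 bases before the Hspe1 start and 144 bases before that Hspd1 start.
Hspd1 and Hspe1 shared site: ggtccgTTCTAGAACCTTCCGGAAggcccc

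The windows of Hspa1a and Hspa1b, the stress-inducible HSP70 genes on chromosome 17, are printed because the 2 genes can hardly be told apart by sequence. Both are read on the minus strand, Hspa1a at 17:34972157-34972406 and Hspa1b at 17:34959239-34959488. They differed at 3 of 250 bases, and each held 1 core, in capitals, 104 bases before the start.
Hspa1a: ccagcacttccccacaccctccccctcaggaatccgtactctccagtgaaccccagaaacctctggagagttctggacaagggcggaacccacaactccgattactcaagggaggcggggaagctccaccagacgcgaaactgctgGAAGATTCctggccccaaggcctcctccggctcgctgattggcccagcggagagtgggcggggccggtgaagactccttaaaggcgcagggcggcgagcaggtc
Hspa1b: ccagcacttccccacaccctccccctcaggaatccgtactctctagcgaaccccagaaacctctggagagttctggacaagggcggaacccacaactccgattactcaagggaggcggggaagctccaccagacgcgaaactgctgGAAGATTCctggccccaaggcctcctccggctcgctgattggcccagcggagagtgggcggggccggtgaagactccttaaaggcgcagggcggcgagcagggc

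Of the CCT ring, Cct2, Cct5 and Cct8l1 had a core in a window, for Cct2 and Cct5 in that of 1 of their 2 starts.

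Depth and background differed between the genotypes in every population. Total counts were 7839326 to 9363442 in WT and 35596876 to 39192588 in ING4-/-. Olfactory and vomeronasal receptor genes, which these cells should not express, had 18.1 to 22.7 counts per kb of exon in WT, equal to 22.6% to 33.4% of all counts when spread over exon length, and at most 0.0851 counts per kb in ING4-/-. Ing4 had 247, 162 and 247 counts in WT and 0, 24 and 76 in ING4-/- (log2 fold change -4.49, standard error 1.56, adjusted p = 0.0373). All 9 stem and progenitor markers were counted in every library except Cd48 in ING4-/- LT-HSCs, which had 0 counts, while Cd3e and Cd8a, which mark T cells, were at 0 in every ING4-/- library. Over the lists of other cell types, the summed level was 30.4 to 321 TPM in WT and 51.4 to 238 in ING4-/- for 4 erythroid genes, of which Hba-a1 (4.50) and Hbb-bs (3.75) were called higher, and 70.3 to 177 and 181 to 243 for 6 granulocyte genes, of which S100a8 (3.43) was called higher. It was 43.1 to 240 and 52.0 to 486 for 3 genes of T and NK cells. The part of these cells in the results was not tested. Of 9 genes of the dissociation stress response 1 was called lower, Jun (-1.35), and none higher. The background, the depth and the genotype cannot be told apart in these libraries.

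The members took 0.815% to 0.913% of all counts in WT and 1.22% to 1.31% in ING4-/-. Levels of different genes are compared here in TPM, the counts per kb of exon scaled to the same total in each library. Summed over the members, the level was 4960 ± 443 TPM in WT and 7310 ± 397 in ING4-/- (SD, n = 3 populations each), a sum that includes the WT background. A few genes carried a large part of it. Hsp90ab1, Hspa8, Cct5, Cct8 and Hspd1 together made up 44.5% to 48.0% of the members' level in the 6 libraries. Mean levels were over 100 TPM for 16 members in WT and 18 in ING4-/-, and under 10 TPM for 26 and 33.

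Hsp90ab1, which encodes the constitutive cytosolic HSP90, had the highest level in both genotypes, at 913, 879.7 and 1096 TPM in WT and 958.3, 1090.1 and 1144 in ING4-/-. Hspa8, the constitutive HSP70 of the cytosol, came next, at 451, 460.3 and 566 TPM in WT and 958.4, 1074 and 1004 in ING4-/-. The ranges of these neighbours lay apart in WT and overlapped in ING4-/-. The order of genes rests on all annotated exonic bases, which are 4301 for Hspa8, while its longest coding transcript has 2394. By counts Hspa8 was above Hsp90ab1 in ING4-/-, at 73087, 87786 and 89774 against 50957, 62130 and 71321. Cct5 was next in order, at 357 ± 38.2 TPM in WT and 684 ± 96.3 in ING4-/-, followed by Cct8 at 243 ± 15.9 and 386 ± 59.7. Below them the order was not the same in the genotypes. Hspe1 stood 18th of the 80 in WT and 5th in ING4-/-, and Dnajc15 stood 17th and 6th, but in ING4-/- the ranges of the members ranked 5 to 8 (Hspe1, Dnajc15, Hspd1 and Cct2) overlapped.

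**Figure D1:**
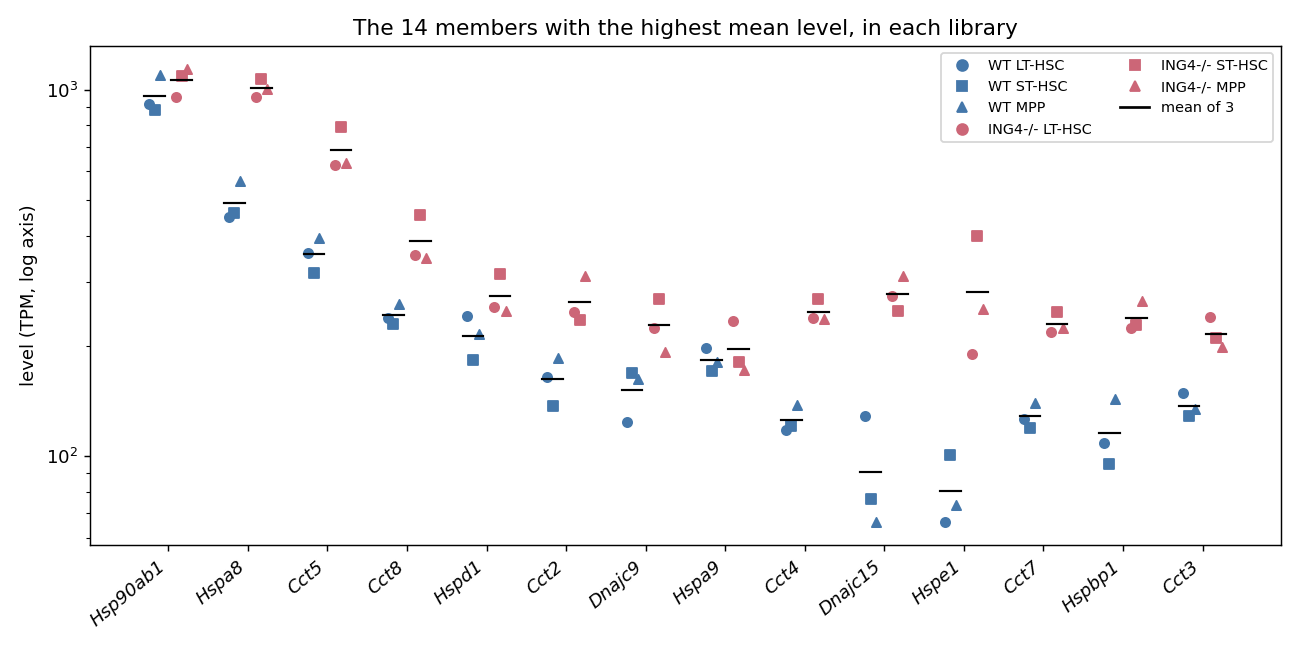
Levels in TPM (log axis) of the 14 members with the highest mean level. Points are libraries, with the population given by shape and the genotype by color, and bars are means of 3 populations. Per annotated exonic base, Hspa8 reached the level of Hsp90ab1 in the ING4-/- libraries, at 958.4 to 1074 TPM, and lay at 451 to 566 TPM in WT.

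The genotypes were compared with the question of how loss of ING4 changes expression across the stem and progenitor populations. In total 75 of the 80 members had enough counts to be tested (Dnajb8, Hspa1l, Hspb2, Hspb3 and Hspb7 did not). A gene was called at an adjusted p under 0.05 with an absolute log2 fold change over 1. After TMM normalization 20 members were called higher in ING4-/- and 7 lower, 26.7% and 9.33% of those tested. Among all 31001 genes tested, 7.98% were called higher and 56.7% lower. All 20 members called higher and 1 of the 7 called lower had a mean of at least 100 counts. For genes at that level the background was 19.3% called higher and 13.3% called lower of 12296, and the members had 32.8% and 1.64% of 61. The median log2 fold change of the members was 0.70 over the 75 tested and 0.88 over those 61, against 0.27 for all genes at that level. When only those genes entered the fit, 6 members were called higher and 2 lower (background 7.11% and 13.2%). In 32 of the 75 members every ING4-/- library lay above every WT library, and in 16 every one lay below (background 12% and 62.9%), and at a mean of at least 100 counts these were 52.5% and 11.5% of the 61 (background 28.7% and 23.7%).

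These counts moved with the scaling. The members called were 8 higher and 8 lower with relative log expression factors (background 4.33% and 58.3%), 35 and 7 with upper-quartile factors (background 14.7% and 55.1%), and 5 and 3 among the 56 members with at least 10 counts in every library, where 8.3% of 9673 genes were called higher and 9.68% lower. Removing the length trend there as well gave 3 higher, Hspa8, Cct3 and Cct7, and 1 lower, Dnajc25 (background 4.65% and 4.67%). Of these 3, Hspa8 was called higher before the trend was removed, and Cct3 and Cct7 were not. Subtracting the background gave 4 higher and 5 lower of 65 (background 5.6% and 38.7%). Of these 4, 3 were among the 20, and the other was Dnaja4. Relative log expression factors moved the median log2 fold change of all genes by -0.32 and upper-quartile factors by 0.50. The 5 members called higher under the minimum of 10 counts, Hspa8, Hspe1, Dnajc15, Hspbp1 and Hspa1b, were among the 20. With the populations as a block 16 were called higher, 15 of them among the 20, and 6 lower (background 6.45% and 54.4%). Without the WT LT-HSC library 12 were called higher (1859 of all 34725 genes tested), and 13 without the WT ST-HSC library (1705 of 32547).

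**Figure D2:**
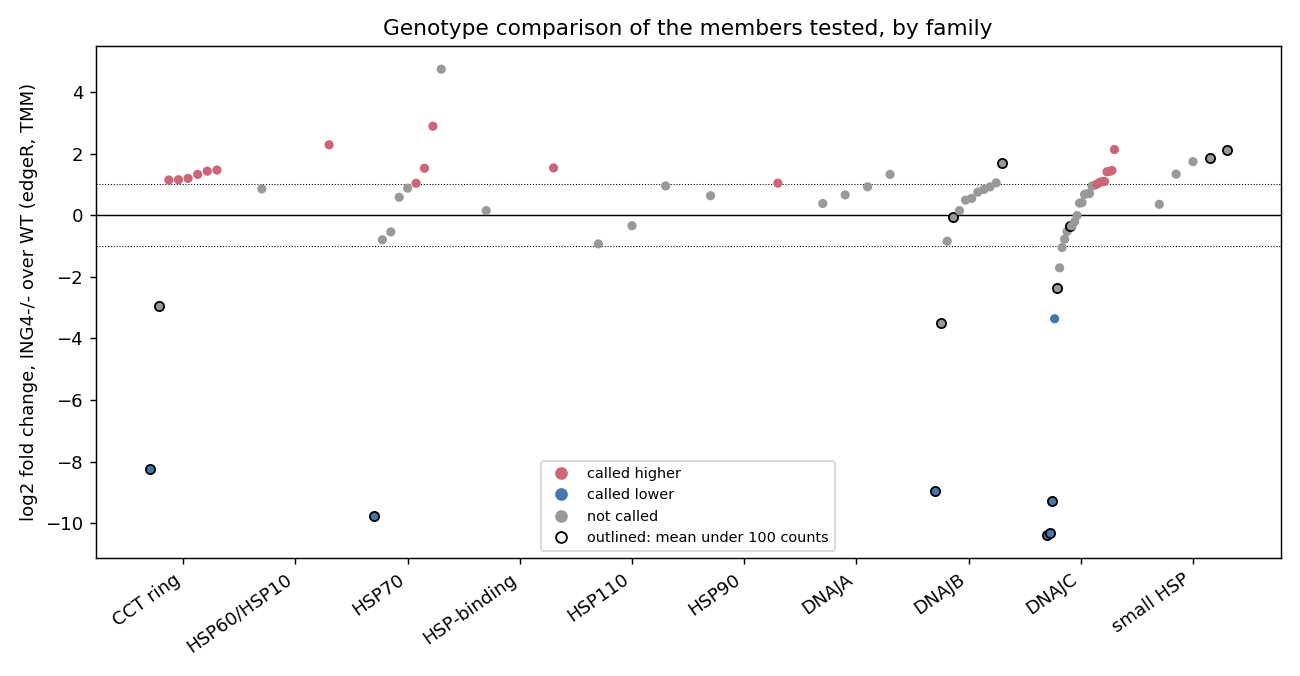
Log2 fold changes of ING4-/- over WT for the 75 members tested, by family (edgeR after TMM normalization; dotted lines at 1 and -1). Color gives the call and an outline marks a mean under 100 counts. The 6 CCT subunits called higher lie between 1.14 and 1.46, and of the 7 members called lower, 6 are outlined.

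Expression of the CCT ring was higher in ING4-/- for all 6 of the members that build the somatic ring, Cct2, Cct3, Cct4, Cct5, Cct7 and Cct8, after TMM normalization. All 6 were called, against 19.3% called higher of all genes with a mean of at least 100 counts. Their log2 fold changes were 1.14 to 1.46 with standard errors of 0.130 to 0.211 and adjusted p-values of 0.000657 to 0.00168, and each stayed called with the populations as a block. Cct4 had 1809, 2146 and 2558 counts in WT and 17823, 21417 and 20657 in ING4-/-, which is 191, 231 and 251 CPM against 569, 677 and 609 (log2 fold change 1.46, standard error 0.172). Cct5 had 388, 405 and 479 CPM in WT and 996, 1342 and 1085 in ING4-/- (1.43, standard error 0.172). The groups lay apart for each of the 6 genes, with ING4-/- above (background 28.7% at a mean of at least 100 counts). Cct3, the smallest of these changes at 1.14 (standard error 0.130), still went from 364, 373 and 371 CPM to 865, 805 and 776. The 2 subunits outside the members, Tcp1 (1.33) and Cct6a (1.45), were called higher as well.

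The size of the change in the ring was not the same under every scaling, though its direction was higher for the 6 genes with relative log expression factors, upper-quartile factors, background subtraction and the minimum of 10 counts. At least 10 counts in every library gave 0.63 to 0.96, with adjusted p-values of 0.00492 to 0.0346 but none over the fold of 1. Relative log expression factors gave 0.78 to 1.11, with 2 of the 6 called (background 4.33%). When the trend with gene length was also removed under the minimum of 10 counts, the values spread from 0.18 (Cct2, adjusted p = 0.590) to 1.34 (Cct7), and Cct3 and Cct7 were called higher while Cct2, Cct4, Cct5 and Cct8 were not. Subtracting the background left 0.36 to 0.71 and none called.

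**Figure D3:**
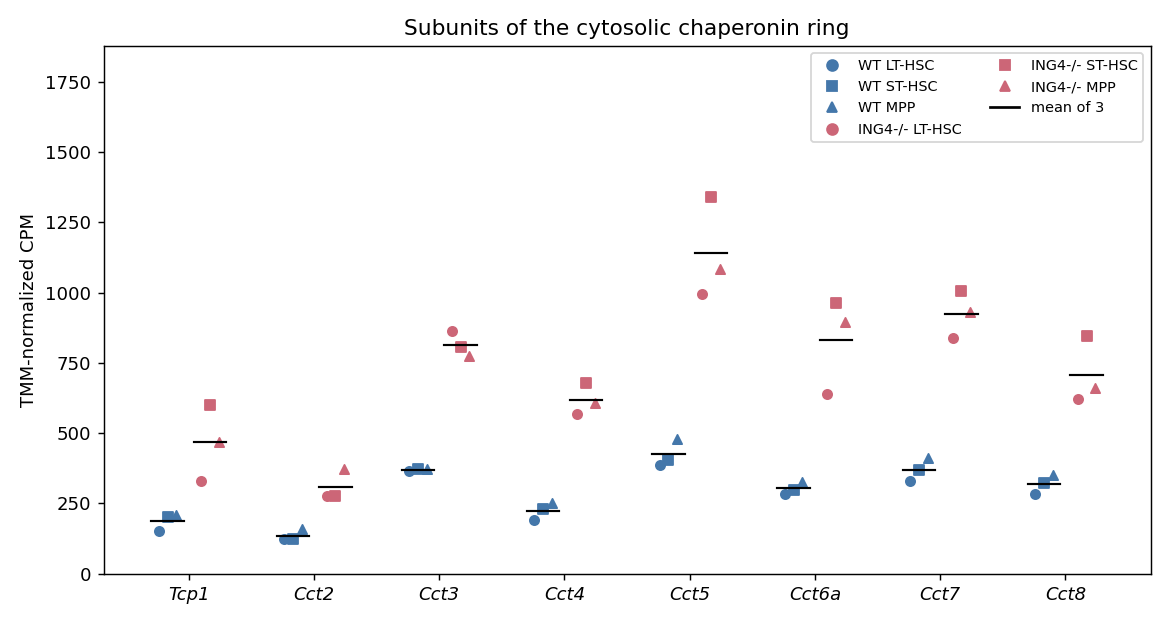
TMM-normalized CPM of the 8 subunits of the CCT ring, including Tcp1 and Cct6a, in each library (bars are means of 3 populations). For every subunit the 3 ING4-/- libraries lie above the 3 WT libraries (background 28.7% at a mean of at least 100 counts).

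The ring holds each of its 8 subunits in the same number. Each subunit's share of the summed level within a library was compared between libraries, free of scaling between them. Shares are per annotated exonic base, which are 6778 for Cct7, while its longest coding transcript has 2441. Differences in share between subunits therefore depend on the annotation. Cct5 had the largest share, 24.8% ± 0.67 in WT and 26.5% ± 1.35 in ING4-/- (SD, n = 3), and Tcp1 the smallest, 6.04% ± 0.61 and 6.00% ± 1.02. Cct8 had 16.6%, 17.4% and 16.8% in WT and 15.1%, 15.9% and 13.9% in ING4-/-, with every ING4-/- library lower (exact permutation test, two-sided, p = 0.1, adjusted p = 0.4 over the 8 subunits). Cct4 had 8.20%, 9.14% and 8.85% in WT and 10.2%, 9.41% and 9.44% in ING4-/-, with every ING4-/- library higher (exact p = 0.1, adjusted p = 0.4). With 3 against 3 libraries 0.1 is the smallest p this test can give. For the other 6 subunits the shares overlapped.

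The remaining CCT members are paralogs of ring subunits with few counts. Cct6b, the paralog of Cct6a known from testis, had 62, 117 and 84 counts in WT and 0, 0 and 120 in ING4-/- and was not called. Cct8l1 had 54, 9 and 82 counts in WT and 0, 0 and 1 in ING4-/-, and was called lower (log2 fold change -8.25, adjusted p = 0.00111). For a gene of its length the WT background alone corresponds to 43.9, 44.6 and 35.5 counts.

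Among the HSP70 genes, Hspa8, Hspa14 and Hspa1b were called higher and Hspa12a lower, of 9 tested (background 7.98% and 56.7%). Hspa8, which also strips clathrin from vesicles and serves chaperone-mediated autophagy, had 7086, 8362 and 10752 counts in WT and 73087, 87786 and 89774 in ING4-/-. This is 746.2, 900.2 and 1055 CPM against 2335, 2776 and 2646, 1.52 higher on the log2 scale (standard error 0.162, adjusted p = 0.000657). Every ING4-/- library exceeded every WT library by more than the spread within a genotype. Hspa8 was also called under the minimum of 10 counts (1.02) and with the length trend removed in addition (1.05), and had 0.72 after background subtraction, under the fold of 1. Reads on 5 near-identical copies of Hspa8 came to at most 3.44% of its counts.

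Hspa14, the HSP70 that works on the ribosome with the J protein Dnajc2, had 84.2, 83.8 and 82.3 CPM in WT and 165, 193 and 155 in ING4-/- (log2 fold change 1.03, standard error 0.192, adjusted p = 0.00207), and 0.52 under the minimum of 10 counts, where it was not called. It was under the fold of 1 (0.89 to 1.00) without any 1 of the WT libraries or without ING4-/- ST-HSCs. Its partner Dnajc2 had -0.22 and was not called. Hspa9, the HSP70 of the mitochondrial matrix, had 299, 306 and 309 CPM in WT and 523, 429 and 415 in ING4-/-. Its log2 fold change of 0.58 passed the adjusted p (0.013) but not the fold, and was 0.07 under the minimum of 10 counts and -0.19 after background subtraction.

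The inducible pair Hspa1a and Hspa1b was low in WT and uneven in ING4-/-. Hspa1b had 16, 13 and 11 counts in WT and 481, 361 and 140 in ING4-/- (log2 fold change 2.89, standard error 0.69, adjusted p = 0.00727), and it was not called with the populations as a block (adjusted p = 0.139) or without WT ST-HSCs (adjusted p = 0.0575). Hspa1a had 1, 8 and 11 counts in WT and 1528, 199 and 1 in ING4-/- (4.74, standard error 2.08, adjusted p = 0.0827), so the ING4-/- libraries range from far above WT in LT-HSCs to below it in MPPs. The WT counts of both genes are below those that background alone would give for their lengths, 50.7 to 67.4 counts. Their transcripts are 99.23% identical over 2201 bases, and how shared reads were counted is not given in the sources used here, so the split between them is uncertain. Summed over both genes, which avoids the split, there were 1.79, 2.26 and 2.16 CPM in WT and 64.2, 17.7 and 4.16 in ING4-/-. The groups did not overlap in this sum, and ING4-/- LT-HSCs had the highest value.

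The other HSP70 genes were not called, apart from Hspa12a, a distant relative of the family, with 95, 30 and 23 counts in WT, below its background of 104 to 130 counts, and 0 in each ING4-/- library. Hspa13 (0.88), Hspa12b (-0.54) and Hspa2 (-0.80, the HSP70 of spermatocytes) missed the adjusted p, and Hspa1l was not tested.

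None of the 3 HSP110 genes, which encode exchange factors of HSP70, was called. Hspa4, a member of the HSP110 family, had 64.6, 109 and 149 CPM in WT and 198, 196 and 227 in ING4-/-. Its difference of 0.95 on the log2 scale (standard error 0.315, adjusted p = 0.0313) was under the fold of 1, and with the populations as a block it was 1.02 and called higher (adjusted p = 0.0369). Hspa4l, its paralog, had 75.2, 74.6 and 64.7 CPM in WT and 35.7, 36.7 and 39.9 in ING4-/-, so the 2 groups lay apart in the opposite direction (-0.93, standard error 0.255, adjusted p = 0.0135). It was called lower under the minimum of 10 counts (-1.45), with relative log expression factors (-1.30) and after background subtraction (-1.11). With the length trend removed from all genes tested, all 3 HSP110 genes were positive, at 3.36 (Hspa4), 2.17 (Hspa4l) and 2.18 (Hsph1). In that fit the median over the members was 3.58. With the length trend removed under the minimum of 10 counts, the median of the 3 HSP110 genes was -0.20 and none was called. Hsph1, the heat-inducible HSP110, had 67.2, 64.9 and 65.6 CPM in WT and 58.2, 45.0 and 52.6 in ING4-/- and was not called (-0.34, standard error 0.250). WT counts of Hspa4l and Hsph1 include a background equal to 131 to 268 counts of their 603 to 714.

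Hspbp1, which encodes an exchange factor that also restrains the ubiquitin ligase CHIP, was called higher. It had 79.1, 81.9 and 118 CPM in WT and 240, 260 and 308 in ING4-/- (1.53, standard error 0.233, adjusted p = 0.000895), and 1.04 under the minimum of 10 counts, where it was called as well, but 0.51 and not called with the length trend also removed (adjusted p = 0.139). Hspbap1, which encodes a protein that binds the small heat shock protein HSP27, had 20.3, 6.03 and 11.8 CPM in WT and 29.1, 6.55 and 6.54 in ING4-/-, and its groups overlapped (0.15, adjusted p = 0.891).

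Of the HSP90 genes, Hsp90aa1, the stress-responsive form, was called higher, and Hsp90ab1, the constitutive form, was not. Hsp90aa1 had 170, 264 and 243 CPM in WT and 474, 499 and 418 in ING4-/- (1.04, standard error 0.209, adjusted p = 0.00306), and 0.54 under the minimum of 10 counts, where it was not called. It was 0.83 without WT LT-HSCs and 0.96 without WT MPPs, under the fold of 1. Hsp90ab1 had 1053, 1200 and 1424 CPM in WT and 1628, 1965 and 2102 in ING4-/- (0.63, standard error 0.163, adjusted p = 0.0105), and its sign reversed to -0.18 after background subtraction. The groups lay apart for both genes on the TMM scale. In TPM, which divides by each library's own sum over all genes, the levels of Hsp90ab1 overlapped between the genotypes.

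Of the mitochondrial chaperonin pair, Hspe1 was called higher and Hspd1 was not. Hspe1, which encodes the HSP10 lid, had 356, 629 and 480 counts in WT and 4975, 11201 and 7755 in ING4-/-, or 37.5, 67.7 and 47.1 CPM against 159, 354 and 229. The difference on the log2 scale was 2.28 (standard error 0.376, adjusted p = 0.00123), and 1.77 and called under the minimum of 10 counts, but not called once the length trend was removed there as well (adjusted p = 0.0601). Hspd1, which encodes HSP60, had 246, 220 and 247 CPM in WT and 381, 500 and 405 in ING4-/- (0.85, standard error 0.172, adjusted p = 0.0031), under the fold of 1. Both groups lay apart on the TMM scale. The starts of the 2 genes overlap on opposite strands, with 7.6% of the exonic bases of Hspe1 and 4.24% of those of Hspd1 shared, and the strand setting of the counting is not given in the sources used here.

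Ratios between members within a library do not depend on the scaling between libraries, and 7 were computed on levels per length. The pairs were not among the planned comparisons, and most set a gene called higher over one that was not. In 6 of the 7 the ING4-/- libraries did not overlap the WT libraries, each with an exact two-sided permutation p of 0.1, the smallest that 3 against 3 allows (adjusted p = 0.117). The share of other gene pairs that do not overlap was not computed, and such a choice of pairs favors separation, so no conclusion is drawn from this count. Hspa8 had 0.494, 0.523 and 0.517 times the level of Hsp90ab1 in WT and 1.00, 0.985 and 0.878 times in ING4-/-, a difference of 0.90 on the log2 scale. Hspa8 is the longer of the 2 (4301 against 2999 exonic bases), and the medians of all genes in their length classes differed by -0.64, the opposite way. After the background was subtracted the difference was 0.91. The mean of the 6 CCT members over Hsp90ab1 went from 0.211, 0.200 and 0.191 to 0.335, 0.338 and 0.284 (0.67 on the log2 scale), with length classes differing by -0.47.

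The ratio of Hspe1 to Hspd1 was 0.274, 0.552 and 0.341 in WT and 0.747, 1.27 and 1.01 in ING4-/-, so the lid's transcript went from below that of HSP60 to about its level (1.41 on the log2 scale). Hspe1 is the shorter gene (1474 against 2642 bases), and the length classes differed by 0.40 in the same direction. Hspa8 over the matrix HSP70 Hspa9 went from 2.28, 2.69 and 3.12 to 4.08, 5.92 and 5.83. Hspa8 over Hsph1 went from 18.8, 23.4 and 27.2 to 67.8, 104.3 and 84.9, and Hspa4 over Hspa4l from 1.83, 3.11 and 4.91 to 11.8, 11.4 and 12.1. For the Hspa4 pair the length classes differed by 1.47 of the 1.96 found. Hsp90aa1 over Hsp90ab1 overlapped between the genotypes, at 0.123, 0.168 and 0.130 in WT and 0.222, 0.194 and 0.152 in ING4-/- (exact p = 0.2, adjusted p = 0.2).

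**Figure D4:**
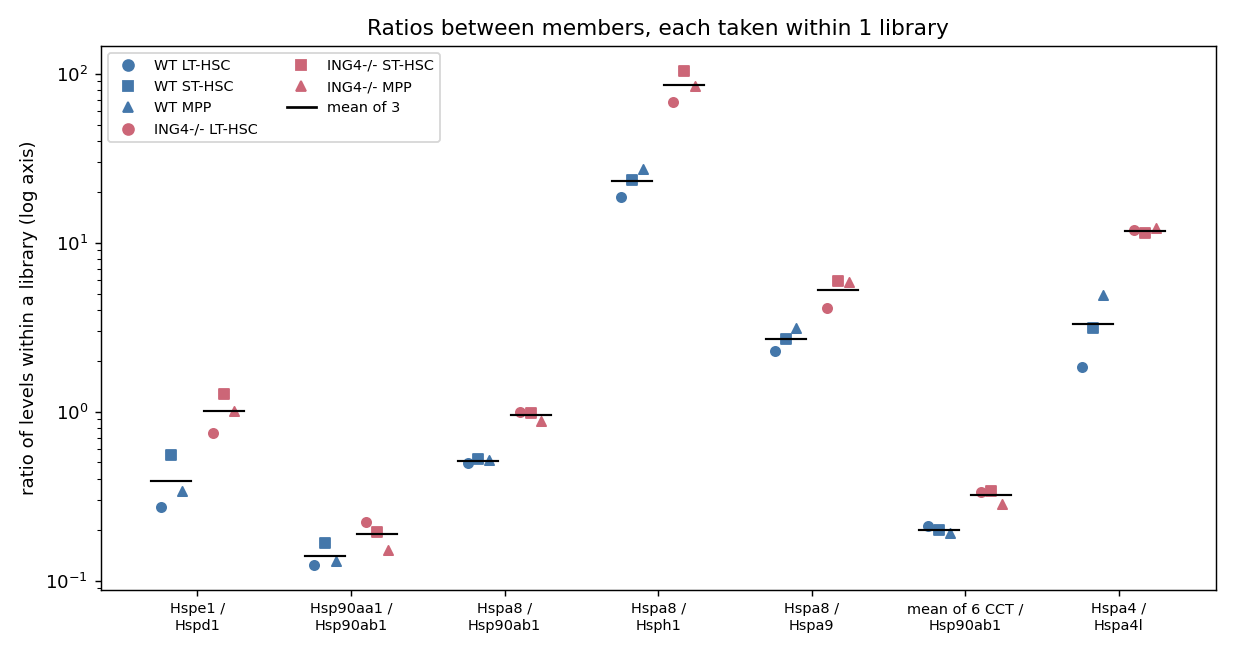
Ratios of levels per length between members, each taken within 1 library (log axis, bars are means of 3 populations). The 3 ING4-/- libraries lie above the 3 WT libraries in 6 of the 7 ratios, the exception being Hsp90aa1 over Hsp90ab1. The pairs were not among the planned comparisons.

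Of the 45 genes of J proteins 44 were tested, and 8 were called higher and 5 lower, against 7.98% and 56.7% of all genes and 19.3% and 13.3% at a mean of at least 100 counts. All 8 that were called higher were DNAJC genes, whose proteins share the J domain and little else. Dnajc15, which encodes a J protein of the mitochondrial inner membrane known to restrain complex I, had 306, 209 and 190 counts in WT and 3157, 3061 and 4191 in ING4-/-. The difference on the log2 scale was 2.13 (standard error 0.31, adjusted p = 0.000785), and 1.60 and called under the minimum of 10 counts, but not called once the length trend was removed there as well (0.87, adjusted p = 0.151). With 648 exonic bases it is among the shortest members. Dnajc19, which encodes a subunit of the motor that imports proteins into the mitochondrial matrix, had 1.45. Dnajc9, a histone chaperone as well as a J protein, had 77.8, 125 and 115 CPM in WT and 207, 264 and 192 in ING4-/- (1.06, standard error 0.252, adjusted p = 0.00712). It was not called under the minimum of 10 counts (0.55), in DESeq2 (0.72), after background subtraction (0.28) or without WT LT-HSCs (0.83), WT MPPs (0.98) or ING4-/- ST-HSCs (0.94), and was -0.052 with the minimum of 10 counts and the length trend removed. Dnajc8, which belongs to the spliceosome, had 1.09.

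Dnajc14 (1.01), Dnajc18 (1.42), Dnajc24 (1.41, a cofactor of diphthamide synthesis) and Dnajc30 (1.09) were called higher only without the block, with blocked adjusted p-values of 0.0616, 0.135, 0.121 and 0.104. Dnajc18 had 13.5, 25.7 and 32.0 CPM in WT and 106, 39.5 and 45.1 in ING4-/-, and LT-HSCs had the highest ING4-/- value.

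The 4 DNAJA genes, the classical partners of HSP70, were not called after TMM normalization. Dnaja2 had 144, 132 and 169 CPM in WT and 299, 253 and 289 in ING4-/- (0.92, adjusted p = 0.00289, under the fold of 1). Dnaja3, the J protein of the mitochondrial matrix, had 0.66 (adjusted p = 0.0376) and lost its direction after background subtraction (-0.00034). Dnaja1, a farnesylated J protein of the cytosol, had 190, 211 and 255 CPM in WT and 213, 319 and 320 in ING4-/-, which overlap (0.38, adjusted p = 0.189). Dnaja4 had 20, 45 and 64 counts in WT, under its background of 64.9 to 81.6 counts, and 547, 254 and 259 in ING4-/- (1.32, adjusted p = 0.128), and 44.05% of its exonic bases lie opposite another gene. It was called higher after background subtraction (10.7, adjusted p = 0.00315), which left it no WT counts. None of the 12 DNAJB genes tested was called higher and 1, Dnajb7, was called lower (17, 16 and 55 counts in WT, 0 in ING4-/-), while the DNAJB median was 0.52. The background was 7.98% called higher and 56.7% lower.

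Dnajc25 was the only member with a mean of at least 100 counts that was called lower. It had 178, 169 and 135 counts in WT and 15, 103 and 38 in ING4-/-, at more than 4 times the depth, which is 18.7, 18.2 and 13.2 CPM against 0.479, 3.26 and 1.12 (log2 fold change -3.36, standard error 0.849, adjusted p = 0.00941). The WT counts were above the background for its length, 82.2 to 103 counts. It was called lower under the minimum of 10 counts, with the length trend removed there and after background subtraction. It was not called with the populations as a block (adjusted p = 0.0609), with the length trend removed from all genes tested (-0.88, adjusted p = 0.318) or with background and length trend removed (-2.10, adjusted p = 0.0923). On its strand, Gm20503 overlaps 7.66% of its exonic bases.

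Small heat shock proteins, which hold unfolded proteins without ATP, were near the limit of detection. None of the 5 tested was called, and in 7 of the 8 at least 1 WT library did not exceed the background. Hspb1, the mouse HSP25, had 23, 4 and 3 counts in WT and 359, 70 and 0 in ING4-/-. Hspb8 had 8, 28 and 44 counts in WT and 0, 66 and 855 in ING4-/-. Among the ING4-/- libraries Hspb1 was highest in LT-HSCs and Hspb8 in MPPs. Hspb6 had 1, 85 and 92 counts in WT and 449, 718 and 307 in ING4-/-. Hspb11, a protein of intraflagellar transport, was the small heat shock gene with a level above background in all WT libraries, at 157, 188 and 141 counts, and had 514, 1149 and 400 in ING4-/-.

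Several members had almost no counts in one ING4-/- library and many in another. In 12 of the 80 members 1 ING4-/- library had at most 3 counts while another had at least 100, and in WT there was no such member. Hspa1a, Hspb1, Hspb8 and Cct6b are among these 12. Counts of 0 were found for 18, 15 and 10 members in ING4-/- LT-HSCs, ST-HSCs and MPPs and for 2, 0 and 3 members in WT. A count of 0 allows up to 3 counts. Against that floor, taken per library, the 5 tested members with no count in any ING4-/- library were at least 31.9-fold (Dnajb7) to 84.8-fold (Dnajc5b) lower than the WT mean, which includes background. Dnajc5b had 79, 55 and 96 counts in WT where background would give 22.8 to 28.6, and Dnajc22 had 108, 59 and 54 where it would give 33.5 to 42.1. For Hspa12a, Dnajb7 and Dnajc5g at least 1 WT library did not exceed the background. In bulk RNA, fewer expressing cells and less RNA per cell cannot be told apart.

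Fold changes were lower for longer genes. Among the genes with a mean of at least 100 counts, the median log2 fold change was 1.80 for 490 genes under 1000 exonic bases and -1.29 for 2111 genes of 8000 bases or more. Set against the median of their own length class, 44 of the 61 members at that level lay above it, and the median difference was 0.33. The difference was larger for the CCT ring, 0.94 over 6 genes with 5 above, and for HSP70, 0.77 over 8 genes with 6 above. It was 0.14 for the 2 HSP90 genes and 0.19 over the 23 DNAJC genes. Cct7 and Cct3, with 6778 and 6370 bases, stood 1.67 and 1.49 above their class, whereas Cct2, with 1962 bases, stood at -0.02. Hspe1 stood 1.07 above its class and Dnajc15 0.33.

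**Figure D5:**
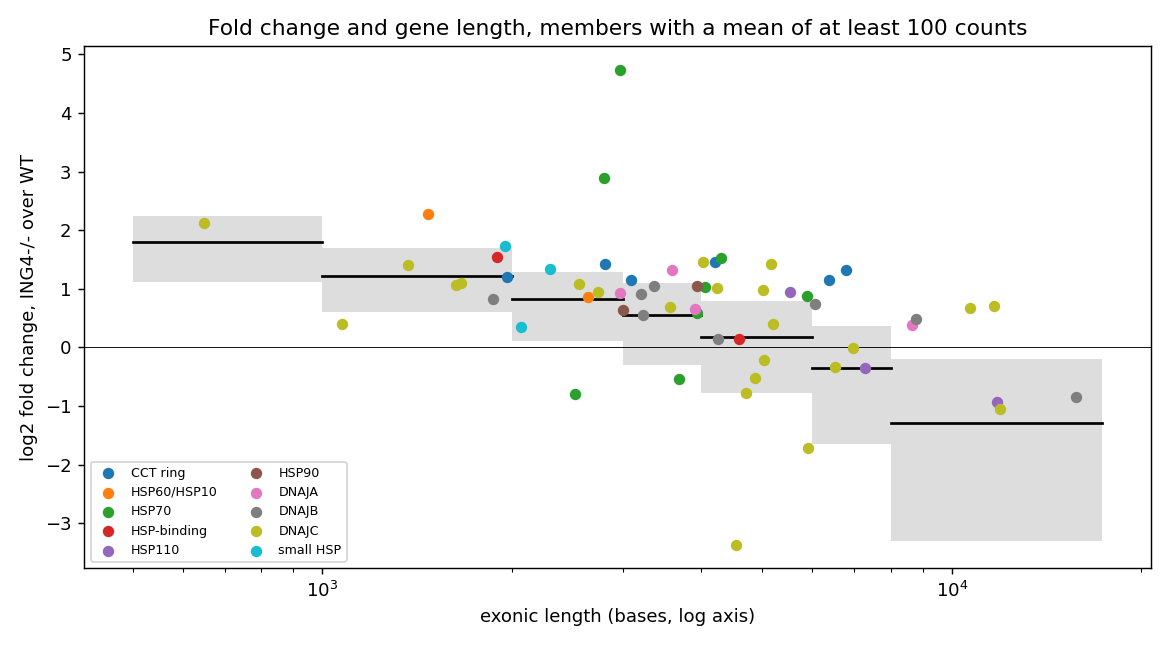
Log2 fold change of ING4-/- over WT against exonic length (log axis) for the 61 members with a mean of at least 100 counts, colored by family. Black lines are medians and grey areas the middle quartiles of all genes in the same length class, and 44 of the 61 members lie above their line.

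Populations were compared in a model with genotype as a second term, which leaves 2 residual degrees of freedom. No member and 0.0% of all genes were called among LT-HSCs, ST-HSCs and MPPs in edgeR, and the likelihood ratio test of DESeq2 called 0 members as well. At an unadjusted p under 0.05 there were 2 members, Hspe1 and Dnajc11, against 1.37% of all genes. Hspe1 was highest in ST-HSCs in both genotypes. Dnajc11, a J protein of mitochondrial membranes, was lowest in ST-HSCs in both, with 74.3, 45.2 and 75.5 CPM in WT and 157, 42.4 and 112 in ING4-/-. The members next in order were Hsp90ab1, Dnaja1 and Hspb9. Between MPPs and LT-HSCs, Hsp90ab1 was the 1 member under 0.05, 0.40 higher in MPPs on the log2 scale (standard error 0.13, background 1.81%), and its CPM ran from lowest in LT-HSCs to highest in MPPs in both genotypes.

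Ratios of ING4-/- to WT within a population, on the log2 scale, each come from a single pair of libraries and were not tested. Of the 61 members with a mean of at least 100 counts, 36 had a ratio above 0 in the 3 populations (background 35.6%). The median ratio over the members was 0.80, 0.69 and 0.31 in the order given above. Hspa8 had 1.65, 1.62 and 1.33, Hspe1 had 2.08, 2.39 and 2.28, and Cct4 had 1.58, 1.55 and 1.28, so these genes were higher in each population. Dnaja4 ran from 3.00 in LT-HSCs to 0.28 in MPPs. The median ratio was lowest in MPPs, and a difference between populations in the effect of genotype could not be tested with these libraries.

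Among 61 other chaperone genes, listed for their textbook role as cofactors of the members, 60 were tested, and of these 24 passed as higher and 3 as lower, with 0.81 as the median log2 fold change (background 7.98% and 56.7%, or 19.3% and 13.3% at a mean of at least 100 counts). Prefoldin, which hands nascent actin and tubulin to the CCT ring, and its relatives had 7 of 9 called higher, led by Pfdn5 with 499, 437 and 620 counts in WT and 12382, 9915 and 10376 in ING4-/- (2.66, standard error 0.210, adjusted p = 0.000657). HSP90 co-chaperones had 7 of 20 called higher. HSP70 co-chaperones had 4 of 14 called higher and 1 lower. Bag1, an exchange factor of HSP70, had 2.62 (standard error 0.679) and Grpel1, the exchange factor of the mitochondrial HSP70 Hspa9, had 1.98 (standard error 0.463), while Sgtb had -3.55 (standard error 1.28, adjusted p = 0.0423). Naca and Btf3, the nascent chain complex of the ribosome, were both called higher. Pdcl3 and Tcp1 were called higher among the 4 CCT cofactors and subunits, and 1 of the 5 mitochondrial chaperones was called higher.

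Of the heat shock factors, Hsf1, the main activator of heat shock elements, had 507, 545 and 694 counts in WT and 856, 1301 and 1818 in ING4-/- and was not called (-0.56, standard error 0.339, adjusted p = 0.189). Hsbp1, which encodes a small protein that binds heat shock factor 1, was called higher (1.28), and Hsf3 and Hsf5, with no count in any ING4-/- library, were called lower. Of the 17 members with a core of the heat shock element in the window 4 were called higher and 1 lower, with a median log2 fold change of 1.08. Of the 48 members without one 11 were called higher and 4 lower, with a median of 0.54 (background 7.98% and 56.7%). Both groups include members without enough counts to be tested. The 15 members without a window, among them Hspa8, Hsp90aa1 and Cct4, are in neither group. A difference between the groups was not tested. Under the minimum of 10 counts 7 of the 55 other chaperone genes tested were called higher and 2 lower (background 8.3% and 9.68%). With the length trend removed there as well, 4 were called higher and 1 lower (background 4.65% and 4.67%).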

How the data were processed

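RNA-seq counts of 6 libraries were analysed, 3 WT and 3 ING4-/-, grouped by the sample labels. The authors deposited raw counts, reads per gene without normalization, on mm10 per the labels. The aligner, the counting program and its strand setting are not given in the sources used here. Symbols, lengths and positions came from GENCODE vM21 on GRCm38, where 49056 of 49315 identifiers were found. Members and gene lists were chosen with earlier results of these data known.

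From the counts, genotypes were compared in edgeR 4.0.16 (R 4.3.3) with TMM, filterByExpr and the quasi-likelihood F test, adjusted over all genes by Benjamini-Hochberg. Standard errors were derived from the fold change and F. The population model added population to genotype. Alternatives were DESeq2 1.42.0, other scalings and filters, equal depth, libraries left out, background subtraction and removal of a lowess trend on exonic length. Background subtraction took the receptor genes' counts per kb times the exonic length from every count. TPM used all exonic bases. CPM is TMM-normalized, and ratios within a population used a prior count of 2. A mean of at least 100 counts as a filter, and the combined length and background alternatives, were added after seeing the data. Libraries of a population deviated together from their genotype means (r = 0.143, 0.110 and 0.121 over 9673 genes), so population pairs the libraries. The main comparison had genotype as its only term and did not use this pairing. Population was the replicate block in an alternative only. Within a genotype no pair was a duplicate deposit (chi-square per degree of freedom 15.4 or more). Exact permutation tests were two-sided.

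Named by rule were the CCT, HSP90, HSP60/HSP10 and HSP110 genes, Hspa8, Hspa9, Hspa14, Hspa1a and Hspa1b, the 12 highest mean levels, the 6 highest and lowest called changes with a mean of at least 100 counts, the 5 lowest population p-values, groups of 5 or fewer, Ing4 and, of the other chaperone genes, the 3 highest and lowest called changes with that mean. A match of at least 200 bases at 95% identity counted as a near-identical copy (BLAST), and 13 members had one. The fits were tested on simulated counts. A count of 0 allows 3 counts, and without molecular identifiers reads are not single molecules, so floors cover counting error only. Other genes named in the text were chosen after their values were seen. Protein sequences were not used here. The result of 1 marker list is not reported here.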

Additional observations from a re-analysis of the deposited data

Results flagged for a closer look

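In 3 members named in the report the log2 ratio of ING4-/- to WT did not have the same sign in every population. Each ratio rests on 1 library of each genotype, and the difference between populations was not tested. Hspa1a, the inducible HSP70, had 7.93, 2.74 and -3.23 (LT-HSC, ST-HSC, MPP), with at most 11 counts in any WT library and 1 count in ING4-/- MPPs. Dnajc11, a mitochondrial J protein, had 1.07, -0.092 and 0.57. Hspbap1 had 0.52, 0.12 and -0.84.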

How the results depend on the processing

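After each number of members called, brackets give the share or number of all genes called in that direction. The number of members called higher, 20 after TMM (7.98%), was 8 with relative log expression factors (4.33%), 35 with upper-quartile factors (14.7%) and 10 with DESeq2 (1562 of 43986). It was 5 with at least 10 counts in every library (8.3%), 13 without both ST-HSC libraries (1540 of 31484) and 4 after background subtraction (5.6%). It was 56 with the length trend removed (9526 of 31001), 10 at equal depth (1789 of 26012) and 8 among protein-coding genes (1148 of 18600). In alternatives chosen after seeing the data it was 6 at a mean of at least 100 counts (7.11%) and 40 with background and length trend removed (5405 of 19744). With the minimum of 10 counts and the length trend removed it was 3 (4.65%). Leaving out 1 library gave 12 to 25. The lowest was without WT LT-HSCs (1859 of 34725), then 13 without WT ST-HSCs (1705 of 32547). The number called lower, 7 after TMM (56.7%), was 13 with DESeq2 (24290 of 43986), 3 with at least 10 counts (9.68%) and 12 without both MPP libraries (18639 of 31530). It was 2 at a mean of at least 100 counts (13.2%) and 2 with background and length trend removed (6886 of 19744). With the minimum of 10 counts and the length trend removed it was 1 (4.67%). Leaving out 1 library gave 7 to 11, with 11 without ING4-/- MPPs (19995 of 32507). The members' median log2 fold change, 0.70, was 0.37 with relative log expression factors, 1.31 with upper-quartile factors, 0.31 with DESeq2, 0.37 with at least 10 counts, 0.32 after background subtraction, 3.58 with the length trend removed, 0.36 among protein-coding genes, 1.66 with background and length trend removed and 0.22 with the minimum of 10 counts and the length trend removed. With population as the replicate block 16 were called higher (6.45%) and 6 lower (54.4%). The cause was not tested. Signs reversed for Cct6b (0.49) with the length trend removed, for Dnaja1 with at least 10 counts (-0.13), after background subtraction (-0.31) and at a mean of at least 100 counts (-0.050), and after background subtraction for Dnaja3 (-0.00034), Hsp90ab1 (-0.18) and Hspa9 (-0.19). They also reversed under the minimum of 10 counts with the length trend removed for Dnajc9 (-0.052) and Hsp90ab1 (-0.13). Hspa4l had 2.17 and Hsph1 2.18 with the length trend removed, 0.59 and 0.26 with background subtracted as well, and Hsph1 had 0.25 with upper-quartile factors. Hspbap1 had -0.19 with relative log expression factors, -0.17 with DESeq2, -0.35 with at least 10 counts, -0.066 with the block, -0.41 without both LT-HSC libraries, -0.0079 at equal depth, -0.20 among protein-coding genes, -0.28 at a mean of at least 100 counts, -0.28 with the minimum of 10 counts and the length trend removed, and -0.93 to 0.69 without 1 library. No member was called between populations under any alternative run. The lower depth and the background of the WT libraries limit what can be seen of low members.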
